A study of Mus musculus with 22 samples.

Results

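The comparison described here is the one between kidney cortex labelled Pt-CrAT and kidney cortex labelled fl/fl at 15 months of age. Its members are the 6 libraries whose titles carry that age and the word chow, out of 22 libraries in the series: CrAT15Mchow183, CrAT15Mchow185 and CrAT15Mchow204, labelled Pt-CrAT, and Wt15Mchow205, Wt15Mchow225 and Wt15Mchow227, labelled fl/fl. All were male C57BL/6J mice. In the study, carnitine acetyltransferase (Crat) was removed from proximal tubular cells by Cre recombinase under the Ggt promoter, and animals were followed to ages at which lipid had built up in their mitochondria. Pt-CrAT names the deleted genotype, with Ggt as its Cre promoter, and fl/fl the floxed animals, for which the labels give no Cre promoter. The other groups are 12-month animals with LFD in the title, a word the labels do not spell out (3 and 3), and 24-month animals with chow in the title (5 and 5). The deletion is limited to cells that use this promoter, so Crat transcripts of other cortical cells remain in the tissue. Messenger RNA was read near its 3' end, with 13137543 to 15108233 counts per library at 15 months.

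Crat encodes a mitochondrial enzyme that passes acetyl groups between coenzyme A and carnitine. Proximal tubule cells burn fatty acids for most of their energy: long-chain acyl groups enter mitochondria as carnitine esters, beta-oxidation cuts them to acetyl-CoA, and the acetyltransferase lets surplus acetyl groups leave as acetylcarnitine. Many genes of this route are targets of PPAR alpha, a nuclear receptor activated by fatty acids.

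The targeted gene went against the labels at 15 months. Levels are TMM-scaled CPM (each count over its library's effective total), always in the order in which the libraries are listed above. Crat (ENSMUSG00000026853, GRCm38 chromosome 2, 30400471 to 30415813, minus strand) stood at 63.1, 72.6 and 71.8 CPM in libraries labelled Pt-CrAT and at 41.5, 34.3 and 60.0 CPM in libraries labelled fl/fl. All 3 libraries labelled as deleted were above all 3 labelled as floxed, with the narrowest gap between CrAT15Mchow183 and Wt15Mchow227. The means were 69.1 ± 5.27 and 45.3 ± 13.3 CPM (SD, n = 3 each), a ratio of 1.53 and a log2 fold change of 0.61 (SE 0.27). An exact two-sided permutation test of the CPM values gave p = 0.1, the smallest possible with 3 against 3. In edgeR's quasi-likelihood test over all genes Crat had an unadjusted p of 0.0366 and a Benjamini-Hochberg adjusted p of 0.581. Leaving out 1 library at a time gave log2 fold changes from 0.43 (without Wt15Mchow225) to 0.87 (without Wt15Mchow227). All were above 0, as follows where groups do not overlap. Which exons are floxed is not stated in the labels, and a 3' tag outside the deleted part does not check a deletion. Crat also overlaps Dolpp1 on the opposite strand, and the strand setting of the counting is not given. For these reasons the animals are called by their labels throughout.

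In other groups Crat followed the labels at 24 months and overlapped at 12 months. The 5 libraries labelled Pt-CrAT at 24 months ran from 28.4 to 38.9 CPM with a median of 37.9, and the 5 labelled fl/fl from 43.5 to 112 CPM with a median of 73.8, so those groups did not overlap. At 12 months the libraries labelled Pt-CrAT lay between 42.4 and 81.1 CPM and those labelled fl/fl between 54.0 and 98.0 CPM. The 15-month libraries labelled Pt-CrAT thus fell inside the range of both fl/fl groups of other ages, and also inside that of the 12-month group labelled Pt-CrAT. The lowest 15-month library labelled fl/fl, at 34.3 CPM, fell inside the 24-month Pt-CrAT range, and the other two lay above it.

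**Figure D1:**
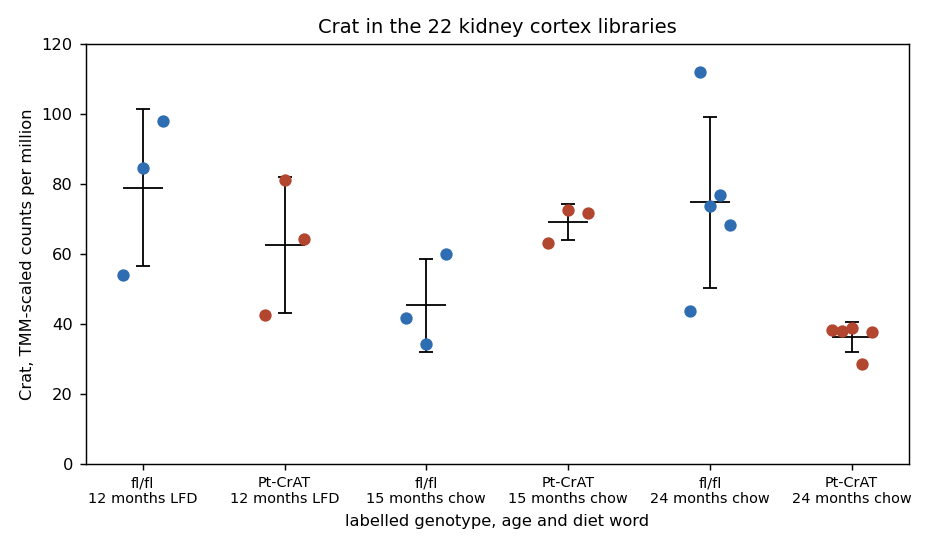
Crat in all 22 libraries, in TMM-scaled CPM (vertical axis), by labelled genotype, age and diet word (horizontal axis). Points are libraries, horizontal bars are group means and vertical bars are SD. At 15 months the 3 libraries labelled Pt-CrAT (63.1 to 72.6) sit above the 3 labelled fl/fl (34.3 to 60.0), and at 24 months the order is the other way round.

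Which library stood away from its own group depended on the principal component. On the first principal component of the 6 libraries, which held 39.6% of the variance, CrAT15Mchow185 and CrAT15Mchow204 lay at -36.9 and -33.1, CrAT15Mchow183 at -0.68, and Wt15Mchow205, Wt15Mchow225 and Wt15Mchow227 at 9.88, 18.6 and 42.2. The second component (18.7%) set CrAT15Mchow204 apart, at -35 against 16.8 and 21.6 for the others of its label. The third (15.8%) set Wt15Mchow205 apart, at 37.15 against 0.17 and -18.8. The pair with the smallest difference of all pairs crossed the labels: CrAT15Mchow183 and Wt15Mchow225 had a chi-square per degree of freedom of 9.88, against 12.1 to 27.8 within libraries labelled Pt-CrAT and 11.2 to 31.6 within those labelled fl/fl. The largest differences were those of Wt15Mchow227 from CrAT15Mchow185 and CrAT15Mchow204, at 69.2 and 71.4. No pair was close to sampling noise, so each library was counted once. Mitochondrial transcripts took 5.10% to 5.55% of counts in the 6 libraries. The proximal tubule markers of the labelled tissue were abundant: Slc34a1 (6274 to 8267 CPM), Lrp2 (824 to 1959 CPM) and Slc5a2 (264 to 328.1 CPM). Of the other markers set down for cell types, Ly6g, Cd3e, Cd79a, Krt5, Acta1, Ckm, Cyp11a1 and Cyp11b1 were not among the genes tested.

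No gene passed the test between the labelled genotypes. Of 15064 genes, 0 had an adjusted p under 0.05 in edgeR's quasi-likelihood test (0%), and the smallest adjusted p was 0.581. DESeq2 and limma-voom also called 0, with smallest adjusted p of 0.0547 and 0.579. At an unadjusted p under 0.05 there were 1249 genes (8.29%; 597 higher, 3.96%, and 652 lower, 4.33%), where 753 are expected by that threshold alone, and DESeq2 gave 1339 and limma-voom 1254. That number rested on single libraries: it was 521 without Wt15Mchow227, 634 without CrAT15Mchow185, 700 without CrAT15Mchow204, 983 without Wt15Mchow225, 1484 without Wt15Mchow205 and 1740 without CrAT15Mchow183. It also rested on the libraries fitted: edgeR gave 2761 of 13805 genes with the 6 libraries alone, and 1660 of 14921 with the 16 chow libraries. All 3 libraries of one label lay outside the range of the other in 3663 genes (24.3%), 1749 of them higher (11.6%) and 1914 lower (12.7%) in libraries labelled Pt-CrAT. These shares are the background for the counts of lists below. In simulated counts of this design (14903 genes), the test recovered 62% of genes changed 2-fold and 92% of genes changed 3-fold. The simulation changed 50 genes at each fold, and 16 of its 155 calls were false, so these shares need not hold for the real libraries. There, Gm15441 (ratio 3.09) and Psca (ratio of fl/fl to Pt-CrAT 6.16), both described below, did not pass.

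The 12 genes of smallest p among those with higher values in libraries labelled Pt-CrAT had ratios of 1.36 to 2.01, apart from Iglc1. Osbpl3, an oxysterol-binding protein of membrane contact sites, had compact values on both sides: 127, 130 and 122 CPM against 92.0, 96.8 and 90.6 CPM (log2 fold change 0.44, SE 0.12). Cirbp, an RNA-binding protein induced by cold, stood at 215, 235 and 226 CPM against 180, 152 and 110 CPM (0.61, SE 0.19). Clec7a, the beta-glucan receptor dectin-1 of myeloid cells, held 9.86, 6.65 and 9.09 CPM against 5.43, 4.40 and 3.15 CPM (0.98, SE 0.27). In none of these did the groups overlap. Ifit3, an interferon-induced antiviral protein, stood at 21.98, 17.1 and 17.5 CPM against 11.5, 13.3 and 10.4 CPM (0.69, SE 0.20). The related gene Ifit3b on the same chromosome overlapped and had a lower mean, at 9.94, 5.73 and 7.32 CPM against 7.11, 9.35 and 9.68 CPM (-0.19, SE 0.29). Whether tags were split between Ifit3 and Ifit3b was not tested. Gpt, alanine aminotransferase, stood at 34.9, 41.6 and 40.2 CPM against 32.7, 27.1 and 23.5 CPM (0.49, SE 0.15). Iglc1, an immunoglobulin light-chain constant gene, had the largest ratio (8.21) and the widest spread, 28.8, 4.18 and 8.37 CPM against 1.53, 1.79 and 1.69 CPM (3.04, SE 0.86). Its level in CrAT15Mchow183 was more than that of the other libraries together, and its fold change ran from 1.90 to 3.46 with a library left out. Light-chain constant genes are near-identical copies whose tags the counting could split. The others were Nfkbil1 (1.0), Miip (0.81), Ablim3 (0.64), Ift27 (0.51), Engase (0.53) and the zinc transporter Slc39a3 (0.50), all with groups that did not overlap.

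The 12 genes of smallest p among those with lower values included a pair of tubulins. Tubb2a, a beta-tubulin of microtubules, stood at 17.5, 12.0 and 10.5 CPM against 20.04, 27.3 and 37.7 CPM (log2 fold change -1.09, SE 0.28), and Tuba1a, an alpha-tubulin, at 18.7, 14.5 and 14.2 CPM against 26.2, 29.5 and 40.6 CPM (-1.02, SE 0.27). Both were lowest in CrAT15Mchow185 and CrAT15Mchow204, nearer the fl/fl range in CrAT15Mchow183, and highest in Wt15Mchow227. Slc15a2, the peptide transporter PEPT2 of the late proximal tubule, held 53.7, 32.7 and 32.6 CPM against 55.8, 90.0 and 81.2 CPM (-0.93, SE 0.26). Kcnk5, a potassium channel of the proximal tubule, held 129, 189 and 155 CPM against 224, 244 and 368.3 CPM (-0.82, SE 0.23). For this gene the lowest library was CrAT15Mchow183, unlike the tubulins. Btbd10 stood at 3.84, 1.91 and 2.90 CPM against 8.80, 7.22 and 6.99 CPM (-1.41, SE 0.40), without overlap. Psca, a surface protein of urothelium, and the alpha-globin Hba-a2 are described with their cell types below. Values were also lower for Dpy19l1 (-0.81), Clec11a (-1.04) and Amd1 (-0.71), a decarboxylase of polyamine synthesis, without overlap. Gramd1b (-0.76) and Madd (-0.67) overlapped, with CrAT15Mchow183 inside the fl/fl range. All 24 genes kept their sign whichever of the 6 libraries was left out, and none passed the adjusted threshold. They were picked by p in these libraries, and groups that do not overlap keep their sign in this way. The kept signs are therefore no separate check.

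**Figure D2:**
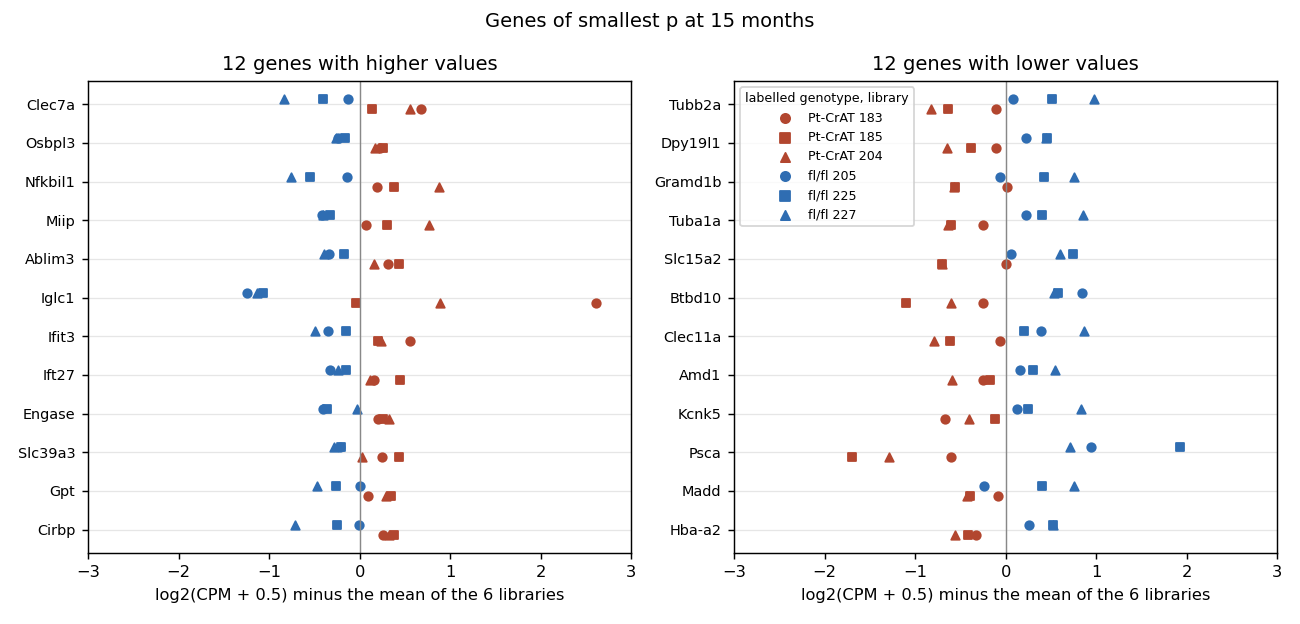
The 12 genes with higher and the 12 with lower values of smallest p in the 15-month comparison, as log2(CPM + 0.5) of each library minus the mean of the 6 (horizontal axis). Colour is the labelled genotype and the marker shape the library. Groups overlap only in Gramd1b and Madd, and the distance between groups is widest in Iglc1 and Psca.

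Gm15441 had the smallest p of any gene above 5 CPM, but is a gene model without a symbol of its own and was added after its values were seen. It is a noncoding transcript antisense to Txnip, the thioredoxin-interacting protein that restrains glucose uptake. Gm15441 (chromosome 3, 96555765 to 96566801, minus strand) stood at 11.1, 10.5 and 8.21 CPM against 3.75, 2.54 and 3.38 CPM, a log2 fold change of 1.63 (SE 0.35). Txnip, on the opposite strand within it, stood at 163, 44.8 and 125 CPM against 231, 152 and 213 CPM (-0.84, SE 0.78), with overlapping groups. The strand setting of the counting is not given, so reads of the pair could be exchanged. When the 6 libraries of 15 months were fitted alone, with 13805 genes tested, edgeR's quasi-likelihood test called 4 genes after Benjamini-Hochberg adjustment: Gm15441 (adjusted p = 0.029), Hba-a2 (0.029), Hba-a1 (0.0481) and the squamous envelope protein Sprr1a (0.0481).

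The carnitine genes had mostly higher values in libraries labelled Pt-CrAT. Of 15 members listed, 11 were tested: 10 had a higher value and 1 a lower one, against 50.8% and 49.2% of all genes. In 4 of 11 (36.4%, against 11.6% of all genes) the labelled Pt-CrAT libraries were all above the others, and the reverse held for none (12.7% of all genes). Besides Crat these were Slc25a20, the carrier that exchanges acylcarnitine for carnitine across the inner membrane (37.1, 32.6 and 35.6 CPM against 25.9, 26.2 and 29.7 CPM; log2 fold change 0.37, SE 0.17), Cpt2, which returns the acyl group to coenzyme A inside (280, 318 and 300 CPM against 260, 242 and 226 CPM; 0.30, SE 0.18), and the carnitine transporter Slc22a21 (5.95, 3.82 and 5.23 CPM against 3.75, 3.23 and 3.15 CPM; 0.56, SE 0.33). Cpt1a, the outer-membrane transferase and gate of the route, had overlapping groups at 221, 266 and 283 CPM against 234, 204.4 and 166 CPM (0.35, SE 0.18). The peroxisomal octanoyltransferase Crot, the closest relative of Crat in function here, stood at 122, 122.9 and 133 CPM against 120, 136.5 and 101 CPM (0.08, SE 0.22). The remaining members were nearer 0: Aldh9a1 of carnitine synthesis at 0.09, Cpt1c at 0.14, the carnitine efflux transporter Slc16a9 at 0.06, and the organic cation and carnitine transporters Slc22a4 at 0.04 and Slc22a5 at -0.09. The median of the list was 0.14, against 0.0056 over all genes. It was 0.03 without Wt15Mchow227, and was 0.28 without Wt15Mchow225 or without Wt15Mchow205. At 24 months, where Crat followed its label, 8 of the 11 had a lower value in libraries labelled Pt-CrAT and the median was -0.17.

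PPAR alpha targets showed the same direction with a larger median. Of 19 tested, 17 had a higher and 2 a lower value, the median log2 fold change was 0.35, and it stayed between 0.32 and 0.40 whichever library was left out. In 4 of 19 (21.1%) the labelled Pt-CrAT libraries were all higher, and in 0 all lower. Acot12, a thioesterase that splits acetyl-CoA, stood at 81.2, 101 and 100 CPM against 80.9, 70.2 and 59.5 CPM (0.42, SE 0.18). Its groups were separated by less than 1 CPM, between CrAT15Mchow183 and Wt15Mchow205. Acot2, the mitochondrial thioesterase of long-chain acyl-CoA, overlapped at 12.7, 18.8 and 20.8 CPM against 15.3, 9.55 and 9.61 CPM (0.60, SE 0.31). At 24 months the median of the list was -0.10, with 8 higher and 11 lower.

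Genes of mitochondrial beta-oxidation had mostly higher values, and the subunits of 1 complex went opposite ways. Of 24 tested, 20 had higher and 4 lower values (median 0.16). In 7 (29.2%) the libraries labelled Pt-CrAT were all higher, and in 2 (8.33%) all lower. The alpha subunit of the trifunctional protein, Hadha, stood at 246, 316 and 312 CPM against 226.96, 226 and 243 CPM (log2 fold change 0.33, SE 0.19). Its partner Hadhb went the other way, at 42.4, 38.8 and 39.7 CPM against 50.6, 50.2 and 47.4 CPM (-0.29, SE 0.20), and neither overlapped. The short-chain hydroxyacyl-CoA dehydrogenase Hadh was also lower, at 294, 221 and 268 CPM against 385, 336 and 426 CPM (-0.55, SE 0.29). The thiolase Acaa2 was higher, at 265, 303 and 263 CPM against 203, 211 and 242 CPM (0.34, SE 0.19), as was the medium-chain dehydrogenase Acadm (0.29, SE 0.22; 210 to 294 CPM over the 6 libraries). The very-long-chain dehydrogenase Acadvl (0.15) and the long-chain dehydrogenase Acadl (0.03) overlapped. In the peroxisome, 10 of 21 genes were higher and 11 lower, with a median of -0.10. The enoyl-CoA isomerase Ech1 had the smallest p of that list and overlapped (0.38, SE 0.17). At 24 months 19 of the 24 mitochondrial genes had a lower value in libraries labelled Pt-CrAT (median -0.16).

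Lipid droplet genes differed in part. Gpam, the first enzyme of triglyceride synthesis, stood at 3.39, 4.53 and 4.103 CPM against 2.29, 2.13 and 2.23 CPM (log2 fold change 0.85, SE 0.30). Plin5, the droplet coat protein of oxidative tissues that ties droplets to mitochondria, stood at 21.2, 26.04 and 21.7 CPM against 15.5, 16.1 and 13.8 CPM (0.61, SE 0.22). For both, the lowest library labelled Pt-CrAT was clear of the highest labelled fl/fl. Among the lipases, Mgll, monoglyceride lipase, stood at 148, 126 and 139 CPM against 93.2, 91.0 and 97.1 CPM (0.55, SE 0.22), and Lipe, hormone-sensitive lipase, at 19.9, 23.5 and 27.2 CPM against 19.5, 16.6 and 14.8 CPM (0.47, SE 0.20), where the groups nearly met. The triglyceride lipase Pnpla2 overlapped (0.08, SE 0.13), as did the droplet coat genes Plin1, Plin2 (0.21, SE 0.55), Plin3 and Plin4. Over the 32 genes of lipid uptake and droplets, 22 were higher and 10 lower (median 0.15). Groups did not overlap in 7 of the higher (21.9%) and 3 of the lower (9.38%). The droplet and lipase genes are also adipocyte genes, and adipocyte markers differed between libraries. Of 10 adipocyte genes tested, 6 were higher and 4 lower (median 0.68, and 0.30 to 0.84 with a library left out). Cfd, complement factor D made by fat cells, stood at 46.0, 36.9 and 26.9 CPM against 12.7, 21.8 and 3.77 CPM, and the adipokine Adipoq at 7, 3.96 and 4.75 CPM against 4.51, 3.57 and 0.31 CPM. The fatty acid binding protein Fabp4, shared with capillary endothelium, ran the other way at 40.9, 12.0 and 21.5 CPM against 50.5, 60.7 and 88.9 CPM (-1.43, SE 0.64), and the droplet protein Cidec overlapped (1.21, SE 0.81). Summed over the list, libraries labelled Pt-CrAT held 196 to 275 CPM and those labelled fl/fl 220 to 314 CPM. Most of that sum was Car3, a carbonic anhydrase gene of the list, and Fabp4. Car3 stood at 125 to 222 CPM over the 6 libraries and overlapped (-0.09, SE 0.52). The sum therefore says little about the less abundant members, Cfd and Adipoq among them. The part of adipocytes in the droplet genes was not tested. In bulk tissue, fewer cells of a type and less RNA per cell cannot be told apart, here and in every cell type list below.

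**Figure D3:**
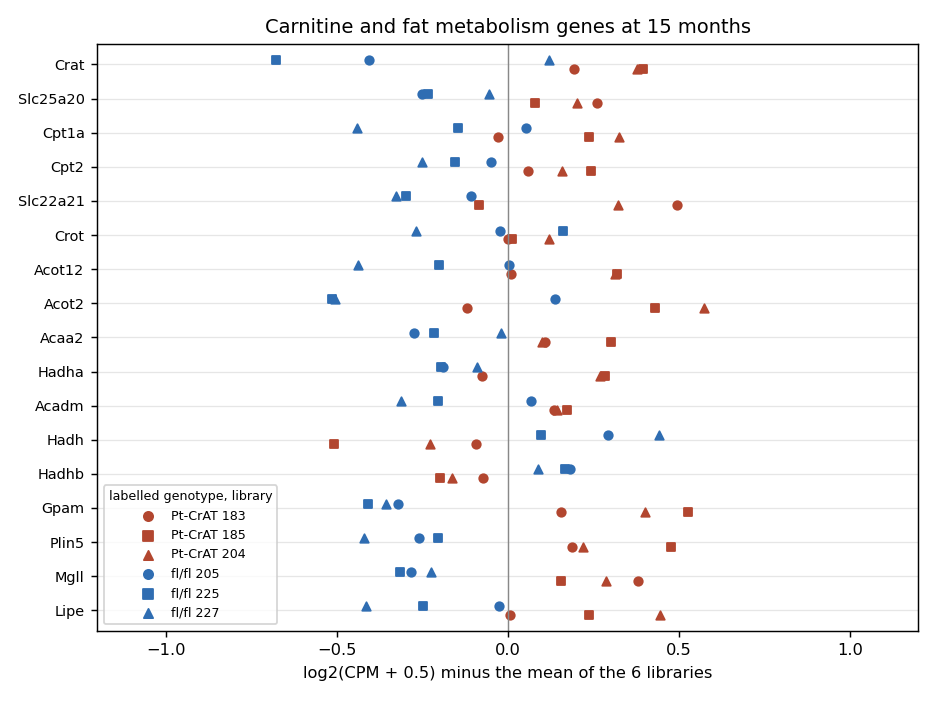
Carnitine, PPAR alpha, beta-oxidation and lipid droplet genes at 15 months, as log2(CPM + 0.5) of each library minus the mean of the 6 (horizontal axis), coloured by labelled genotype with 1 shape per library. Crat, Slc25a20, Cpt2, Gpam, Plin5 and Mgll are higher in all 3 libraries labelled Pt-CrAT, while Hadh and Hadhb are lower in all 3.

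Several nuclear genes of the respiratory chain had lower values. Among the subunits of complexes III, IV and ATP synthase, 20 of 34 were lower and 14 higher, and in 10 (29.4%, against 12.7% of all genes) all libraries labelled Pt-CrAT were below the others, and in 2 (5.88%) above. Uqcrfs1, the Rieske iron-sulfur protein of complex III, stood at 170, 103 and 121 CPM against 200, 208 and 341 CPM (log2 fold change -0.92, SE 0.36). Cox7b, a small subunit of complex IV, stood at 306, 249 and 232 CPM against 319, 362 and 522 CPM (-0.61, SE 0.24). In both, CrAT15Mchow183 lay nearest to the fl/fl range and Wt15Mchow227 far above the rest. Uqcrb of complex III gave -0.52 (SE 0.23) without overlap, and Cox8a of complex IV gave -0.48 (SE 0.20) with CrAT15Mchow183 inside the fl/fl range. The median of this list was only -0.06, and -0.0045 without Wt15Mchow227. In complex I, 20 of 37 were lower and 17 higher (median -0.03, and 0.01 without Wt15Mchow227), 7 of the lower (18.9%) and 4 of the higher (10.8%) fully apart. Ndufb3 stood at 270, 120 and 147 CPM against 277, 326.8 and 477 CPM (-1.01, SE 0.46), and Ndufa8 (-0.41, SE 0.19) and Ndufa4 (-0.91, SE 0.46) did not overlap either. The 4 higher ones were Ndufs3 (0.40, SE 0.21), Ndufv1 (0.21, SE 0.17), Ndufc1 (0.16, SE 0.15) and Ndufa2 (0.20, SE 0.23). In the citric acid cycle list, 21 of 34 were lower and 13 higher, 9 (26.5%) and 5 (14.7%) of them fully apart. Sdhc, the membrane anchor of succinate dehydrogenase, stood at 218, 98.8 and 167.7 CPM against 264, 288 and 445 CPM (-1.04, SE 0.46), and Pdhx, a core protein of the pyruvate dehydrogenase complex, at 40.9, 36.4 and 39.2 CPM against 45.3, 44.4 and 62.8 CPM (-0.39, SE 0.17). Dlst of the oxoglutarate dehydrogenase complex overlapped (-0.42, SE 0.20). Of 8 transcripts of the mitochondrial chromosome, 6 were higher and 2 lower, with a median of 0.10. Groups were fully apart in 1 higher (12.5%) and 1 lower (12.5%) of them. The lower one was mt-Cytb of complex III, at 11506, 9941 and 11594 CPM against 13270, 11838 and 14998 CPM (-0.28, SE 0.25). The smallest p was that of mt-Nd2, which overlapped at 4590, 5448 and 4100 CPM against 3767, 4142 and 2923 CPM (0.38, SE 0.18).

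The cytoskeletal and heat shock lists held mostly lower values. Of 20 tubulin, actin and keratin genes tested, 16 were lower and 4 higher, with a median log2 fold change of -0.30 that stayed between -0.36 and -0.22 with a library left out. Groups were fully apart in 5 of the lower (25.0%) and 2 of the higher (10%), the latter being the actins Actb (0.16) and Actg1 (0.89, under 1 CPM in all 6 libraries). Besides Tubb2a and Tuba1a, the alpha-tubulin Tuba1b stood at 194, 117 and 107 CPM against 155, 209 and 323 CPM (-0.72, SE 0.29), where CrAT15Mchow183 lay inside the fl/fl range. The myosin light chain Myl6 also overlapped (-0.59, SE 0.22). The alpha-tubulin genes share most of their coding sequence, so tags could be split between them. Of 27 heat shock and chaperone genes, 21 were lower and 6 higher (median -0.17, and -0.08 without Wt15Mchow227). Groups were fully apart in 5 of the lower (18.5%) and 1 of the higher (3.70%).

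The inducible Hsp70 genes Hspa1a and Hspa1b, which refold proteins after stress, led the heat shock list. They are printed with the 200 bases before their RefSeq starts (GRCm38.p6, minus strand; Hspa1a chr17:34972157-34972356, Hspa1b chr17:34959239-34959438), because the pair is nearly a duplicate and its counts have to be read together. Capitals mark GAANNTTC, a pair of inverted units of the heat shock factor element, and CCAAT, the CCAAT box, here on the other strand as ATTGG.
Hspa1a: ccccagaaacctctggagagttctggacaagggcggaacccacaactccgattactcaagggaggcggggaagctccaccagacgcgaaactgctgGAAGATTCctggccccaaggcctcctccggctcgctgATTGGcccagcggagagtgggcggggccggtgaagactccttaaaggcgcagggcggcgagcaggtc
Hspa1b: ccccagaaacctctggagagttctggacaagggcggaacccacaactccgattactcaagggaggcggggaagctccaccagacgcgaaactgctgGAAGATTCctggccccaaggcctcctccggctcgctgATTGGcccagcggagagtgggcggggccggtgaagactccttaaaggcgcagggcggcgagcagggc
The stretches were identical at 199 of 200 positions. GAANNTTC, which reads the same on both strands, occurred in 5.41% of 27025 RefSeq promoters of this length, and CCAAT on either strand in 30.0%. The motifs do not overlap here, and a match is only a description of the letters.

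Hspa1a stood at 6.85, 4.18 and 4.34 CPM in libraries labelled Pt-CrAT and at 7.88, 8.66 and 13.9 CPM in those labelled fl/fl (log2 fold change -0.98, SE 0.32). Hspa1b stood at 1.66, 0.57 and 1.61 CPM against 3.06, 3.78 and 6.15 CPM (-1.76, SE 0.60). All libraries labelled Pt-CrAT were below all labelled fl/fl in both genes, and Wt15Mchow227 was the highest in both. Chordc1, a cochaperone of Hsp90, stood at 52.99, 37.7 and 39.8 CPM against 47.4, 61.8 and 74.0 CPM (-0.49, SE 0.18), with CrAT15Mchow183 inside the fl/fl range.

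Along the nephron, the list of the early proximal tubule was balanced and that of its last segment, S3, held more lower than higher values. Of 25 genes of segments S1 and S2, 12 were higher and 13 lower, with a median of -0.0048, but single transporters differed widely. Slc5a12, the sodium-coupled lactate transporter, stood at 180, 173 and 163.8 CPM against 127, 77.0 and 85.0 CPM (log2 fold change 0.84, SE 0.28). Lrp2, the endocytic receptor megalin, was lower at 1219, 824 and 1049 CPM against 1697, 1503 and 1959 CPM (-0.74, SE 0.28). Neither overlapped. The amino acid transporter Slc7a8 was lower too (133, 86.4 and 132 CPM against 229, 177 and 224.5 CPM; -0.84, SE 0.43), and the neutral amino acid transporter Slc6a19 overlapped (0.31, SE 0.16). The phosphate transporter Slc34a1 was higher at 7507, 8267 and 8044 CPM against 7032, 6274 and 6913 CPM (0.24, SE 0.19), and the glucose transporter Slc5a2 overlapped (-0.06, SE 0.21). Ggt1, the gene of gamma-glutamyl transferase and added after its values were seen because its promoter drives the Cre, stood at 3366, 3310 and 3831 CPM against 2657, 2954 and 2817 CPM (0.32, SE 0.22). In segment S3, 10 of 16 genes were lower and 6 higher, with a median of -0.46, and 5 of the lower (31.2%) and 2 of the higher (12.5%) were fully apart. The cystine carrier Slc7a13 stood at 342, 306 and 313 CPM against 468, 430 and 522 CPM (-0.56, SE 0.29). The urate and nicotinate transporter Slc22a13 stood at 35.5, 12.0 and 21.9 CPM against 28.2, 33.5 and 41.0 CPM (-0.57, SE 0.28), with CrAT15Mchow183 again inside the fl/fl range.

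Further along, the thick limb, principal cell and medullary lists had mostly lower values, and the distal convoluted tubule and intercalated cell lists were balanced. Of 17 distal convoluted and connecting tubule genes, 8 were higher and 9 lower (median -0.07). The calcium-binding protein Calb1 stood at 216, 193 and 194 CPM against 289, 299 and 296 CPM (log2 fold change -0.55, SE 0.23), and the sodium chloride cotransporter Slc12a3 overlapped (0.19, SE 0.15). Of 18 intercalated cell genes, 10 were higher and 8 lower (median 0.04), with 2 of the higher (11.1%) and 4 of the lower (22.2%) fully apart. The transcription factor Foxi1 stood at 10.5, 4.39 and 10.1 CPM against 13.8, 14.2 and 21.2 CPM (-0.99, SE 0.42). The ammonia transporter Rhcg overlapped (-0.51, SE 0.22), and the proton pump subunit Atp6v1g3 gave 0.12 (SE 0.21), with groups that met near 104 CPM.

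Of 17 principal cell genes, 13 were lower and 4 higher, with a median of -0.21, and 3 in each direction (17.6%) were fully apart. Aqp2, the vasopressin-regulated water channel, stood at 421, 185.2 and 255 CPM against 390, 384 and 775 CPM (log2 fold change -0.85, SE 0.32), and the basolateral water channel Aqp4 at 45.8, 13.5 and 23.2 CPM against 33.8, 57.2 and 68.9 CPM (-0.95, SE 0.35). In both, CrAT15Mchow185 and CrAT15Mchow204 were below every library labelled fl/fl and CrAT15Mchow183 was not. Of 15 thick limb genes, 10 were lower and 5 higher (median -0.16). The potassium channel Kcnj1 (51.5, 42.2 and 41.4 CPM against 57.5, 62.8 and 72.0 CPM; -0.51, SE 0.28) and the claudin Cldn10 (-0.31, SE 0.18) did not overlap, while Umod, uromodulin (-0.33, SE 0.21), and the cotransporter Slc12a1 (-0.16, SE 0.26) did. Of 16 genes of the thin limb and inner medulla, 15 were lower and 1 higher, with a median of -0.60 that ran from -0.76 to -0.45 with a library left out. In 5 (31.2%) all libraries labelled Pt-CrAT were lower, and in 0 all higher. The small heat shock protein Cryab, abundant in the medulla, stood at 79.7, 27.4 and 36.0 CPM against 57.6, 83.3 and 107 CPM (-0.79, SE 0.34). The transporter Slc4a11 overlapped in the same way (-0.93, SE 0.40), and the atrial peptide convertase Corin was low throughout at 0.64 to 3.23 CPM (-1.30, SE 0.56). At 24 months the thin limb and medulla list had 14 of 16 members higher in libraries labelled Pt-CrAT, with a median of 0.27.

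Urothelial genes had the largest median of any list and the list's level was lower in every library labelled Pt-CrAT, CrAT15Mchow183 included. Urothelium lines the renal pelvis and is no part of the cortex. Of 24 genes in the list, 15 were tested, 12 with lower and 3 with higher values, and in 7 (46.7%, against 12.7% of all genes) the groups were fully apart with lower values. The median was -0.94, and -0.60 without Wt15Mchow227. Psca stood at 4.06, 1.63 and 2.33 CPM against 12.8, 25.8 and 10.8 CPM (-2.62, SE 0.75). Upk3a, a uroplakin of the apical plaque, stood at 1.204, 0.21 and 0.40 CPM against 3.98, 5.02 and 4.07 CPM (-2.84, SE 0.73), and Upk1a at 3.09, 2.62 and 2.57 CPM against 4.82, 5.36 and 5.69 CPM (-0.94, SE 0.46). None of the 3 overlapped, though Psca varied widely among libraries labelled fl/fl. Sprr1a stood at 1.13, 1.27 and 0.56 CPM against 5.13, 5.15 and 3.69 CPM (-2.21, SE 0.59), and the keratin Krt15 at 0.53, 0.14 and 0.08 CPM against 1.61, 2.34 and 2.23 CPM (-3.0, SE 0.73). Krt19, a simple-epithelial keratin of the collecting duct and injury lists, stood at 0.23, 0 and 0.16 CPM against 1.15, 1.24 and 0.92 CPM. Upk3b and Upk1b were under 1.6 CPM everywhere and lower in all libraries labelled Pt-CrAT. Summed over the list, the libraries labelled Pt-CrAT held 125 to 142 CPM and those labelled fl/fl 149 to 180 CPM. Such sums were fully apart in 12 of the 54 lists, the urothelial list and the erythrocyte list below among them. Much of the urothelial sum was Perp (60.7 to 69.8 CPM over all 15-month libraries) and Krt7 (23.9 to 32.6 CPM). Both overlapped, with log2 fold changes of 0.03 and -0.13. The defining basal keratin Krt5 was not among the genes tested. At 24 months the list had 7 members higher and 8 lower, with a median of -0.05. How far the dissection included pelvis is not given in the sources used here, and its part in the urothelial and medullary values was not tested.

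**Figure D4:**
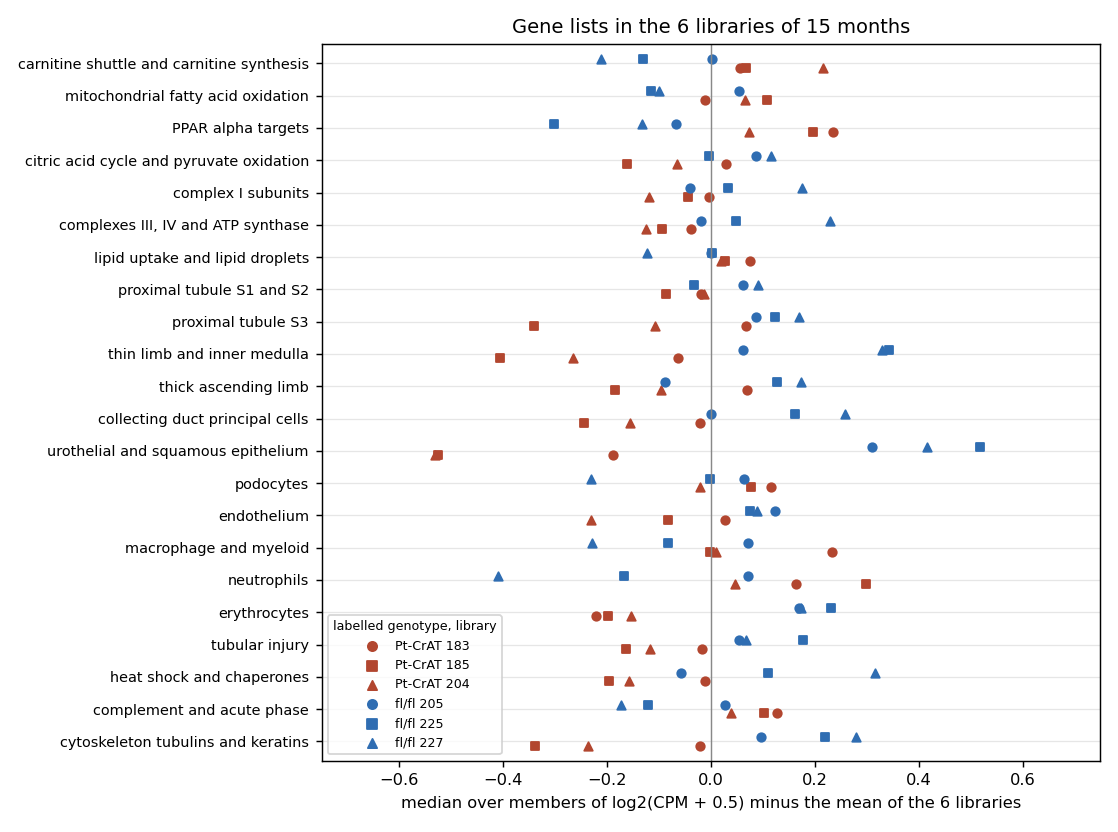
Gene lists at 15 months: for each library, the median over the members of a list of log2(CPM + 0.5) minus the mean of the 6 libraries (horizontal axis), coloured by labelled genotype with 1 shape per library. Urothelial and erythrocyte lists separate the labelled groups (urothelial -0.53 to -0.19 against 0.31 to 0.52), while in the thick limb, proximal S1 and S2, and complex I lists the libraries mix.

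The alpha-globin genes and the beta-globin Hbb-bs had lower values in all 3 libraries labelled Pt-CrAT, while the beta-globin Hbb-bt overlapped. Erythrocyte transcripts in whole cortex can come from blood left in the tissue. One list member, Slc4a1, is also in the intercalated cell list, and it overlapped (log2 fold change 0.243, SE 0.265). The alpha-globin genes Hba-a1 and Hba-a2 lie next to each other on chromosome 11, and the 200 bases before their RefSeq starts (GRCm38.p6, plus strand; Hba-a1 chr11:32283472-32283671, Hba-a2 chr11:32296292-32296491) are shown because they are the same sequence offset by 3 bases. Capitals mark the CCAAT box.
Hba-a1: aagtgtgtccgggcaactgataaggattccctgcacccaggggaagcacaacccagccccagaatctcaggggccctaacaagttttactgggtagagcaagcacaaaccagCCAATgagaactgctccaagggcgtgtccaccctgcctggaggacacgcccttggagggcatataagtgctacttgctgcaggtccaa
Hba-a2: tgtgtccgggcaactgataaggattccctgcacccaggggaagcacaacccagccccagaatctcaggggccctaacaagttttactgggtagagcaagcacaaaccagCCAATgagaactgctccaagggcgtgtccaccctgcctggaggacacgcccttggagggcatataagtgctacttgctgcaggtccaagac
At that shift, 197 of 197 compared bases were identical. TATAAA, the TATA box core, was searched on both strands and is not in these windows, and it occurred in 10.6% of the 27025 promoters. Both windows hold TATAAG, which differs from it only in the last base. Variants of the box were not searched for, so the windows are not said to lack one. Since the genes are near-identical, counting could split their tags, and their values were read side by side.

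Hba-a1 stood at 244, 222 and 189 CPM against 337.4, 387 and 414 CPM (log2 fold change -0.80, SE 0.26), and Hba-a2 at 110, 104 and 94.0 CPM against 166, 199 and 200 CPM (-0.88, SE 0.27). The beta-globin Hbb-bs stood at 556, 646 and 558 CPM against 998, 859 and 876 CPM (-0.64, SE 0.30). In these 3 genes the gap between groups was wider than the range inside either group, and CrAT15Mchow183 lay with its own label. Hbb-bt stood at 219, 267 and 206 CPM against 373, 308 and 265 CPM (-0.45, SE 0.34), with CrAT15Mchow185 above Wt15Mchow227. Alas2, the erythroid enzyme of haem synthesis, stood at 19.3, 16.3 and 17.9 CPM against 22.9, 26.9 and 27.8 CPM (-0.53, SE 0.31), and Bpgm, which makes the oxygen-affinity regulator of red cells, gave -0.37 (SE 0.19) without overlap. Over the list, 8 of 10 were lower and 2 higher, 6 (60%, against 12.7% of all genes) with groups fully apart. The median was -0.49, and between -0.59 and -0.50 with a library left out. Summed, the list took 1218 to 1400 CPM in libraries labelled Pt-CrAT and 1910 to 2046 CPM in those labelled fl/fl. At 24 months 9 of the 10 members were lower too (median -0.37). Blood content of the tissue was not measured apart from these genes.

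Glomerular and vascular lists pointed different ways. Of 16 podocyte genes, 12 were higher and 4 lower (median 0.24), 5 of the higher (31.2%) and 1 of the lower (6.25%) fully apart. The phosphatase receptor Ptpro was higher without overlap (log2 fold change 0.58, SE 0.30). Podxl, the podocyte sialomucin that endothelium also makes, was lower at 184.6, 126 and 120 CPM against 189, 203.5 and 252 CPM (-0.58, SE 0.27), and the transcription factor Tcf21 overlapped (-0.71, SE 0.32). Of 25 endothelial genes, 17 were lower and 8 higher, with a median of -0.21, and 7 (28.0%) were lower with groups fully apart. Cavin3, a caveolar coat protein, stood at 2.41, 1.56 and 1.93 CPM against 3.44, 3.78 and 5.84 CPM (-1.14, SE 0.25). Pecam1, the junction protein CD31, stood at 70.8, 65.7 and 51.4 CPM against 73.0, 78.0 and 76.4 CPM (-0.27, SE 0.14), and the vascular growth factor receptors Flt1 (-0.33, SE 0.16) and Kdr (-0.36, SE 0.19) did not overlap. Esam overlapped at -0.43 (SE 0.17), and the tight-junction gene Cldn5 was higher with overlap (0.75, SE 0.36).

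In the myeloid list more genes had higher than lower values, but the share fully apart was near that of all genes. Cybb, the catalytic subunit of the phagocyte oxidase, stood at 44.2, 41.7 and 38.4 CPM against 33.2, 22.3 and 17.1 CPM (log2 fold change 0.78, SE 0.31). Cd52, a surface glycoprotein of leukocytes, stood at 60.1, 51.2 and 54.5 CPM against 46.4, 37.4 and 28.2 CPM (0.57, SE 0.28), and Itgax, the dendritic integrin CD11c, at 8.58, 5.80 and 9.73 CPM against 5.05, 5.09 and 4.995 CPM (0.67, SE 0.33). None of the 3 overlapped, and Wt15Mchow227 was lowest in each. The leukocyte phosphatase Ptprc (0.55, SE 0.27) and the lysosomal macrophage marker Cd68 (0.17, SE 0.30) overlapped. Of 43 macrophage and myeloid genes, 30 were higher and 13 lower (median 0.17), with 6 higher (14%, against 11.6% of all genes) and 1 lower (2.33%) fully apart. The lower one was Adgre1, the macrophage receptor F4/80, at 0.90, 1.13 and 0.72 CPM against 1.68, 1.24 and 1.15 CPM (-0.55, SE 0.42). The neutrophil calgranulins were higher in every library labelled Pt-CrAT: S100a8 at 10.7, 13.2 and 12.0 CPM against 6.43, 4.60 and 2.54 CPM (1.40, SE 0.69), and S100a9 at 3.69, 5.45 and 4.02 CPM against 2.29, 1.44 and 0.999 CPM (1.47, SE 0.64). Il1b, encoding interleukin 1 beta, was under 3.3 CPM throughout and higher without overlap (0.71, SE 0.39). Of the 10 neutrophil genes tested, 5 were higher and 5 lower, 4 of the higher (40%) and 0 of the lower fully apart. The lower ones, Il1r2, Lcn2, Ngp, Mmp8 and Mmp9, were under 3 CPM in all 6 libraries. The defining neutrophil gene Ly6g was not among the genes tested, and the median of the 10 neutrophil genes tested ran from -0.12 (without CrAT15Mchow183) to 1.14 (without Wt15Mchow205).

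Complement and acute-phase genes included Hp, haptoglobin, at 5.49, 4.81 and 4.99 CPM against 2.75, 1.72 and 1.15 CPM (log2 fold change 1.44, SE 0.50). C4b, complement component 4, stood at 35.6, 32.3 and 40.9 CPM against 25.3, 27.8 and 25.3 CPM (0.47, SE 0.20), and its near-identical copy C4a overlapped at 0.94 (SE 0.40). C1s1, a protease of the first complement component, was lower at 5.49, 4.39 and 3.78 CPM against 6.73, 7.63 and 6.84 CPM (-0.63, SE 0.27). Over the list, 12 of 20 were higher and 8 lower (median 0.13, and -0.02 without CrAT15Mchow185). Among 34 interferon response genes, 23 were higher and 11 lower (median 0.08), and after Ifit3 the smallest p was that of the peptide transporter Tap1 (22.4, 21.8 and 19.8 CPM against 19.1, 15.9 and 10.1 CPM; 0.50, SE 0.27). Tap1 shares part of its locus with Psmb9, a list member on the opposite strand that was lower with groups apart (-0.41, SE 0.33). Reads of that pair could be exchanged too. The list median was -0.04 without CrAT15Mchow183 and -0.02 without Wt15Mchow227. Of 22 B and plasma cell genes, 12 were higher and 10 lower (median 0.06). Igkc, the kappa constant gene, stood at 57.6, 65.1 and 58.8 CPM against 53.5, 49.9 and 60.6 CPM, and Igha, the IgA heavy chain, at 19.0, 81.6 and 103 CPM against 49.7, 15.8 and 15.7 CPM. Among libraries labelled Pt-CrAT, Igha was thus lowest where Iglc1 was highest, in CrAT15Mchow183.

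Injury markers did not share a direction with the myeloid genes. Of 36 tubular injury genes tested, 23 had lower and 13 higher values (median log2 fold change -0.09), with 8 lower (22.2%) and 0 higher fully apart. The defining markers were low: Havcr1, kidney injury molecule 1, lay between 0.46 and 1.86 CPM and Lcn2, the lipocalin NGAL, between 0.15 and 0.69 CPM, with overlapping groups. Ccn2, a matricellular growth factor, stood at 11.7, 1.98 and 11.4 CPM against 33.0, 19.4 and 40.9 CPM (-1.90, SE 0.84), and Itgb6, an epithelial integrin that activates TGF beta, at 19.9, 12.3 and 11.4 CPM against 20.5, 23.4 and 33.7 CPM (-0.83, SE 0.39). Their groups did not overlap, though CrAT15Mchow183 came within 1 CPM of the fl/fl range for Itgb6.

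The labelled genotype difference at 15 months was then tested against that at 24 months, with no library in common. In edgeR's quasi-likelihood test of the difference, 0 of 15064 genes passed the Benjamini-Hochberg threshold (0%; smallest adjusted p 0.112), while 2255 had an unadjusted p under 0.05 (15%). Limma-voom called 0 and DESeq2 called 23, 10 with a higher and 13 with a lower difference at 15 months. Crat was among the 6 genes of smallest p and at least 5 CPM: log2 fold change 0.61 at 15 months and -1.04 (SE 0.21) at 24 months, a difference of 1.65 (SE 0.35, adjusted p = 0.266 in edgeR and 0.0117 in DESeq2). Klf2, a flow-responsive transcription factor of endothelium, stood at 19.9, 20.2 and 17.7 CPM against 22.9, 23.4 and 26.3 CPM at 15 months, and at 29.5 to 46.3 CPM against 19.4 to 24.3 CPM at 24 months. Its difference was -1.08 (SE 0.21), with an adjusted p of 0.201 in edgeR and 0.00647 in DESeq2. Uap1l1 (difference 1.07, SE 0.23) and the actin-binding protein Ablim3 (1.04, SE 0.23) had higher values in libraries labelled Pt-CrAT at 15 months, without overlap, and lower means at 24 months, where their groups overlapped. Slc45a3 (-1.95, SE 0.44) and the glucocorticoid-induced Tsc22d3 (-1.33, SE 0.30) were the reverse, with overlap at 24 months for Slc45a3 and at 15 months for Tsc22d3. DESeq2 called all 6, and also Hspa1b, Gm15441, Btbd10, Tubb2a, Cavin3, Krt15, Osbpl3, Engase, Gramd1b and Amd1 among the genes above. Both fits read the same counts and share the 15-month libraries, so the DESeq2 calls add no independent sample.

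At 24 months, with 5 against 5, groups did not overlap in 231 genes (1.53%). Of these, 48 (20.8%, against 24.3% of all genes) were also apart at 15 months, 41 in the opposite direction and 7 in the same direction, and Crat, Klf2, Hspa1b and Foxi1 are in the first set. Hspa1b held 2.65 to 14.9 CPM in libraries labelled Pt-CrAT and 1.09 to 2.53 CPM in those labelled fl/fl at 24 months, with the highest value in CrAT24Mchow136. Whether labels were exchanged at 15 months was not tested. The labels name no cohort or day, so age and any such difference between the 15- and 24-month animals cannot be told apart.

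**Figure D5:**
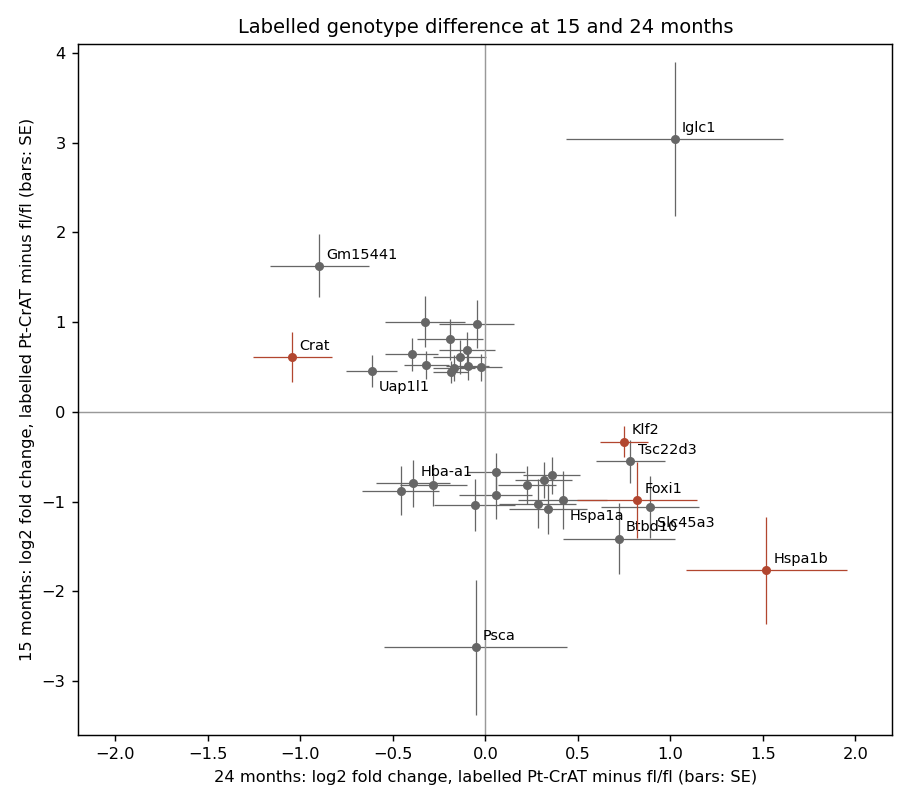
Labelled genotype difference (log2 fold change, labelled Pt-CrAT minus labelled fl/fl) at 24 months (horizontal axis) and at 15 months (vertical axis) for some of the named genes, with bars of 1 SE. Points in red are the 4 genes of the text whose groups are fully apart at both ages in opposite directions: Crat (0.61 and -1.04), Klf2 (-0.33 and 0.75), Foxi1 (-0.99 and 0.82) and Hspa1b (-1.76 and 1.52), each at 15 and then 24 months.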

How the data were processed

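The authors deposited whole-number read counts per gene for 16556 genes, and these counts were tested. They also deposited a normalized signal, each count divided by a DESeq2 size factor, which was used only to check that the size factors could be recomputed. RNA was extracted with TRIzol and sequenced with the Lexogen QuantSeq 3' FWD kit, per the labels' protocols. Per the submitters' processing notes, the genome was GRCm38 and the tools were DESeq2 1.18.1 and R 3.4.3. The sources used here name no aligner, counter, strand setting or annotation. Symbols and coordinates came from GENCODE M21 (16514 genes matched), and promoters from RefSeq tables of GRCm38.p6. The smallest total of a gene over the 22 libraries was 66, so rarely read genes do not appear.

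All 22 libraries entered 1 model of 6 groups (16 residual degrees of freedom) in edgeR 4.0.16 under R 4.3.3: TMM scaling, filterByExpr (15064 genes kept), robust quasi-likelihood F test and Benjamini-Hochberg adjustment at 0.05. DESeq2 1.42.0, limma-voom (limma 3.58.1), other scaling, filters and sample sets, and leaving out each library were the alternatives. Permutation used scipy 1.17.1, and principal components used log2 CPM. The test was also tried on simulated counts. Reads without stated molecular identifiers are not independent molecules. The labels do not state that the samples are separate litters or cages, so p-values measure only the spread between these samples.

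Members and 54 gene lists were chosen with earlier results of these data known. Genes named are Crat and the carnitine list, the 12 higher and 12 lower genes of smallest p with at least 5 CPM and a symbol of their own, up to 4 list members of smallest p with defining members, and the 6 of smallest p in the 15-minus-24-month difference. Gm15441, Txnip, Ggt1, Alas2, Hbb-bt, Pnpla2, Plin1 to Plin4, Adgre1, mt-Cytb, Actb, Actg1, the higher complex I and lower neutrophil genes, and the genes named for their DESeq2 or 6-library calls, were added after their values were seen. Car3 and Psmb9 were added in the same way. One gene that this rule names is not reported here.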

Additional observations from a re-analysis of the deposited data

Results flagged for a closer look

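In the 24-month group labelled Pt-CrAT, Crat stood at 38.3, 37.9, 38.9, 28.4 and 37.7 CPM, and the gap of CrAT24Mchow136 to the nearest other library took 0.893 of the group's range, above the limit for 5 samples. Chance puts about 1 in 20 groups past that limit.

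For 4 genes of the text, all libraries of one label lay on one side at 15 months and on the other side at 24 months. For Crat the difference between the ages was 1.65 on the log2 scale (edgeR adjusted p = 0.266). For Klf2 it was -1.08 (edgeR adjusted p = 0.201). For Foxi1 it was -1.81 (edgeR adjusted p = 0.29). For Hspa1b it was -3.28 (edgeR adjusted p = 0.266), with CrAT24Mchow136 far above the other 24-month libraries of its label at 14.9 CPM against 2.65 to 3.63 CPM.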

How the results depend on the processing

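The fit of the 6 libraries of 15 months alone called 4 genes in place of 0 (smallest adjusted p 0.029), and DESeq2 called 23 genes for the difference between 15 and 24 months in place of 0. The difference for Crat passed in DESeq2 (1.66, adjusted p = 0.0117) and not in edgeR. Leaving out one library at a time gave 0 calls at 15 months and 0 for the difference in every case, a range of 0 to 0. The log2 fold change of Crat at 15 months then ran from 0.428 to 0.867, and its difference between ages from 1.47 to 1.91. Among genes named by the rule, signs turned only with a library left out, over these ranges: Acadl -0.057 to 0.0656, Cpt1c -0.104 to 0.278, Crot -0.028 to 0.17, Slc16a9 -0.0549 to 0.197, Slc22a4 -0.0174 to 0.11, Slc22a5 -0.371 to 0.0972, Slc5a2 -0.139 to 0.017 and Havcr1 -0.505 to 0.382. Of the genes added after their values were seen, Plin4 (-0.123 to 0.674), Car3 (-0.26 to 0.157), Mmp8 (-1.5 to 1.29) and Mmp9 (-0.89 to 0.104) turned too. Cpt1c, Crot and Slc5a2 turned without Wt15Mchow227 alone. The cause was not tested. Of 700 recomputed list medians, 64 moved by more than the spread between replicates, and 50 of these with a library left out. No paired analysis was possible because no replicate number is shared between the groups. With 3 libraries a group, the simulated test recovered 24% of genes changed 1.5-fold and called 16 unchanged genes among 155, so smaller differences were mostly not detectable.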
